A study of Rattus norvegicus with 4 samples.

Results

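Mitochondrial DNA encodes 7 subunits of complex I, the NADH:ubiquinone oxidoreductase that feeds electrons from NADH into the respiratory chain and pumps protons across the inner mitochondrial membrane. The genes are Nd1 to Nd6 and Nd4l. Membership was set by what the genes encode, through their Ensembl identifiers, with no threshold on a value, and all 7 were listed among the 26406 features of each library. Their RNA was measured by sequencing in cultured ventricular muscle cells from hearts of Sprague Dawley rats aged 2 days.

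There were 4 libraries, 1 per group, so no value below has an error from replicate cultures, and the labels do not say whether the libraries came from separate cultures. All groups shared the strain, the age, the culture in medium with 1% ITS on 100 mm dishes and a transfection of 6 h. The first group received an siRNA directed at Chaer, a long noncoding RNA, and then 50 µM phenylephrine, which activates α1-adrenergic receptors and enlarges cultured heart muscle cells. The second received a negative control siRNA and 50 µM phenylephrine. The third received the Chaer siRNA without phenylephrine and the fourth the control siRNA without phenylephrine. Cells were collected after 48 h. The series asked how Chaer contributes to the transcriptional response to phenylephrine, but Chaer itself was not analysed here. The cell type could not be checked against marker genes, because neither the files nor the reference table pairs these identifiers with symbols. The cultures are bulk samples, in which fewer cells of a type, or fewer mitochondria, and less RNA per cell cannot be told apart.

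In mammals the 7 subunits form the core of the membrane arm of complex I, while the arm that oxidises NADH is built from nuclear gene products. Nd2, Nd4 and Nd5 resemble ion antiporters and lie along the proton path, Nd1 holds much of the ubiquinone site, and Nd3, Nd4l and Nd6 lie where the arms of the enzyme meet. All but Nd6 are read from the same strand as part of a long precursor that is later cut into single messengers, with Nd4l and Nd4 left on a shared one. Nd6 is read from the opposite strand. Heart muscle is rich in mitochondria, and these messengers are among its abundant RNAs.

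The identifiers were ENSRNOG00000030644 for Nd1, ENSRNOG00000031033 for Nd2, ENSRNOG00000033615 for Nd3, ENSRNOG00000031053 for Nd4l, ENSRNOG00000029707 for Nd4, ENSRNOG00000029971 for Nd5 and ENSRNOG00000029042 for Nd6. The lengths of their gene models, recovered from counts and RPKM, ran from 297 bp for Nd4l to 1830 bp for Nd5, with Nd3 at 348 bp, Nd6 at 519 bp, Nd1 at 955 bp, Nd2 at 1039 bp and Nd4 at 1378 bp. In mammals Nd5 is the largest and Nd4l the smallest of these proteins. Nd4l and Nd4 overlap, Nd5 and Nd6 are neighbours on opposite strands, and the nuclear genome holds copies of mitochondrial sequence. Whether the authors' counting split such reads between features is not given in the sources used here.

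The libraries held 33944988 to 39155363 reads in listed features. The control siRNA library without phenylephrine stood apart for these genes. The 7 genes took 2.96% of the listed reads with Chaer siRNA and phenylephrine, 3.40% with control siRNA and phenylephrine, 3.10% with Chaer siRNA alone and 5.15% with control siRNA alone. The exact binomial 95% intervals were at most 0.01 percentage points to either side and cover counting error only. The 20 features with the most reads took 20.6% with Chaer siRNA and phenylephrine, 21.7% with control siRNA and phenylephrine, 20.6% with Chaer siRNA and 24.9% with control siRNA. Of the 20 with the most reads over all 4 libraries, 4 were complex I genes.

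Nd1 had 5186 RPKM with Chaer siRNA and phenylephrine, 6242 RPKM with control siRNA and phenylephrine, 6022 RPKM with Chaer siRNA and 8848 RPKM with control siRNA. RPKM counts reads relative to the length of the gene model and to the reads of the whole library. Nd1 was highest in the control siRNA library, and its other 3 values lay within 1.20-fold of each other.

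Among the antiporter-like subunits, Nd2 had 9403 RPKM with Chaer siRNA and phenylephrine, 10701 RPKM with control siRNA and phenylephrine, 10562 RPKM with Chaer siRNA and 17236 RPKM with control siRNA. Nd4 had 4487 RPKM with Chaer siRNA and phenylephrine, 5070 RPKM with control siRNA and phenylephrine, 4170 RPKM with Chaer siRNA and 7368 RPKM with control siRNA. Nd5 had 2385 RPKM with Chaer siRNA and phenylephrine, 2606 RPKM with control siRNA and phenylephrine, 2013 RPKM with Chaer siRNA and 4358 RPKM with control siRNA. Each of the 3 was again highest with control siRNA alone, 1.61-fold, 1.45-fold and 1.67-fold above its next highest library for Nd2, Nd4 and Nd5. Nd4 and Nd5 were lowest with Chaer siRNA alone, while Nd2 was lowest with Chaer siRNA and phenylephrine.

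Of the subunits where the arms meet, Nd4l had 2688 RPKM with Chaer siRNA and phenylephrine, 3086 RPKM with control siRNA and phenylephrine, 2327 RPKM with Chaer siRNA and 4520 RPKM with control siRNA. Nd6 had 1707 RPKM with Chaer siRNA and phenylephrine, 1847 RPKM with control siRNA and phenylephrine, 1417 RPKM with Chaer siRNA and 2711 RPKM with control siRNA. Both followed the order of libraries seen for Nd4 and Nd5. Nd6 comes from the other strand, but whether reads were counted by strand is not given in the sources used here. Its likeness to Nd5 is therefore not known to be independent of Nd5. Nd3 had 4091 RPKM with Chaer siRNA and phenylephrine, 5609 RPKM with control siRNA and phenylephrine, 6313 RPKM with Chaer siRNA and 6043 RPKM with control siRNA. It differed from the other 6 in being highest with Chaer siRNA alone, though only 1.04-fold above control siRNA, and in having a single low library, the one with Chaer siRNA and phenylephrine.

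Counting error was small beside these differences, since the fewest reads behind any value were 27915, for Nd4l with Chaer siRNA, whose exact Poisson 95% interval was 2300 to 2354 RPKM. Nd2 was the most abundant and Nd6 the least abundant of the 7 per length in every library. Nd2 exceeded Nd6 by 5.51-fold with Chaer siRNA and phenylephrine, 5.79-fold with control siRNA and phenylephrine, 7.45-fold with Chaer siRNA and 6.36-fold with control siRNA. Nd4l, Nd5 and Nd6 were the least abundant in every library, in that order, while Nd3 changed places with Nd1 and Nd4. With Chaer siRNA alone Nd3 exceeded Nd1 per length, and it came after Nd4 with Chaer siRNA and phenylephrine and with control siRNA alone.

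**Figure D1:**
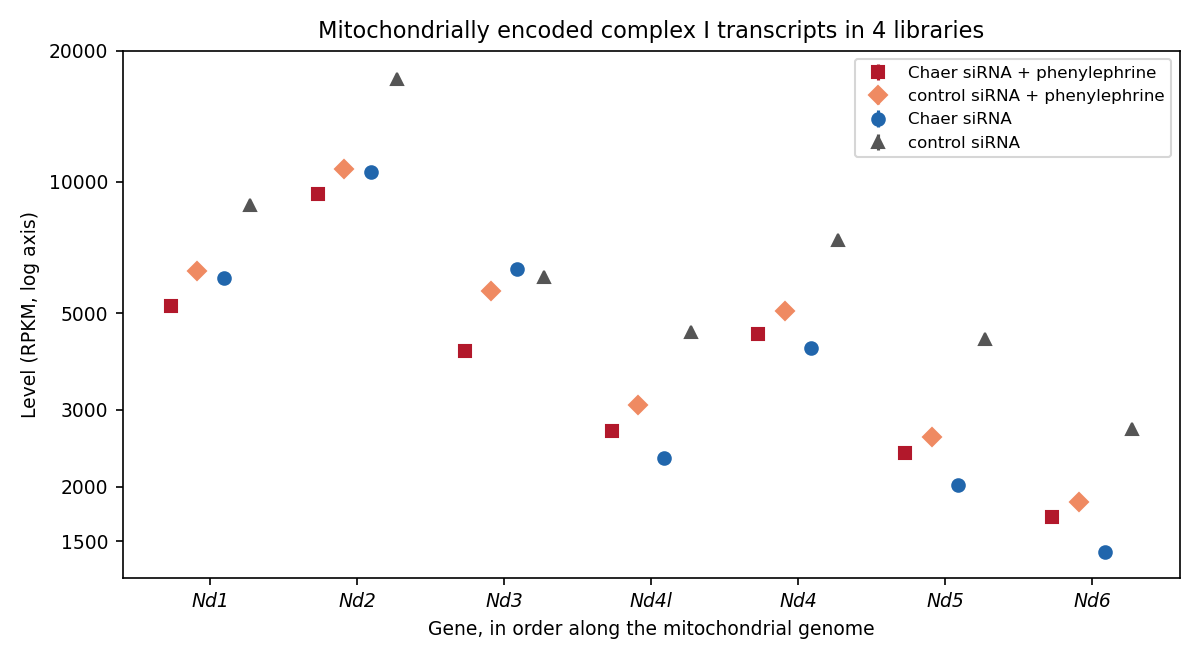
Level in RPKM (log axis) of each complex I gene in the 4 single libraries, with exact Poisson 95% intervals that are smaller than the symbols. The control siRNA library is highest for every gene except Nd3, which is at 6043 RPKM there and at 6313 RPKM with Chaer siRNA.

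With phenylephrine in both libraries, Chaer siRNA against control siRNA gave lower levels of all 7 genes, by small amounts. The ratio was computed as the log2 of (RPKM + 1) in the first library over (RPKM + 1) in the second. It was -0.46 for Nd3, -0.27 for Nd1, -0.20 for Nd4l, -0.19 for Nd2, -0.18 for Nd4, -0.13 for Nd5 and -0.11 for Nd6. The median over the 7 was -0.19, beside -0.03 over the 12226 features whose mean reached 1 RPKM, among which these log2 ratios had an SD of 0.36. The reads of the set together were 1.15 times lower per library total. In this comparison 0 of the 7 were at least 1.5-fold lower, beside 4.31% of all features, and 0 were at least 2-fold lower, beside 0.851%.

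Without phenylephrine, 6 of the 7 genes were lower in the Chaer siRNA library than in the control siRNA library, by 1.47 to 2.16 times. Nd5 was 2.16 times lower (counting interval 2.15 to 2.18), Nd4l 1.94 times (1.91 to 1.97), Nd6 1.91 times (1.89 to 1.94), Nd4 1.77 times (1.76 to 1.78), Nd2 1.63 times (1.63 to 1.64) and Nd1 1.47 times (1.46 to 1.48). Nd3 had a ratio of 1.04 (1.03 to 1.06). The median log2 ratio over the 7 was -0.82, beside 0.02 over all 12226 features. At least 2-fold lower was 1 of the 7, Nd5, beside 1.11% of all features, and at least 1.5-fold lower were 5 of the 7, beside 6.21%. The 7 ratios come from the same libraries, and all genes but Nd6 share a precursor. Counts out of the 7, here and in the other comparisons and fits, are therefore not counts of independent observations. Of all features, 0.810% had a ratio as low as that of Nd5 and 7.03% one as low as that of Nd1, whereas Nd3 lay in the middle, with 55.8% at or below it.

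This difference involved the control siRNA library in which the set was highest, and without that library the siRNA could be compared only in the presence of phenylephrine, where the log2 ratios ran from -0.46 to -0.11. A peculiarity of that library and an effect of the siRNA cannot be told apart with 1 library per group.

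Phenylephrine against no phenylephrine under control siRNA also gave lower levels. The log2 ratios were -0.74 for Nd5, -0.69 for Nd2, -0.55 for Nd6, -0.55 for Nd4l, -0.54 for Nd4, -0.50 for Nd1 and -0.11 for Nd3. The median was -0.55, beside -0.07 over all features. At least 1.5-fold lower were 2 of the 7, Nd5 and Nd2, beside 4.02% of all features, and 0 were at least 2-fold lower, beside 0.605%. This comparison has the same control siRNA library in its denominator as the one before, so the 2 sets of ratios are not independent of each other.

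Under Chaer siRNA, phenylephrine against no phenylephrine gave ratios on both sides of 1. Nd6 was 1.20-fold higher (counting interval 1.19 to 1.22), Nd5 1.18-fold (1.18 to 1.19), Nd4l 1.16-fold (1.14 to 1.17) and Nd4 1.08-fold (1.07 to 1.08). Nd1 was 1.16 times lower (1.15 to 1.17), Nd2 1.12 times (1.12 to 1.13) and Nd3 1.54 times (1.53 to 1.56). The median log2 ratio of the set was 0.11, beside -0.10 over all features. At least 1.5-fold lower was 1 of the 7, Nd3, beside 5.91% of all features, and 0 were at least 2-fold higher, beside 1.10%, or at least 2-fold lower, beside 0.875%. The reads of the set together were 1.05 times lower here, but 1.03-fold higher under TMM or median-ratio scaling, so their direction depended on the scaling. TMM also moved the median log2 ratio to 0.22 and that of Nd2 to -0.05, beside -0.17 as deposited. Under control siRNA the set was 1.51 times lower, and 1.43 to 1.58 times lower under the other scalings.

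**Figure D2:**
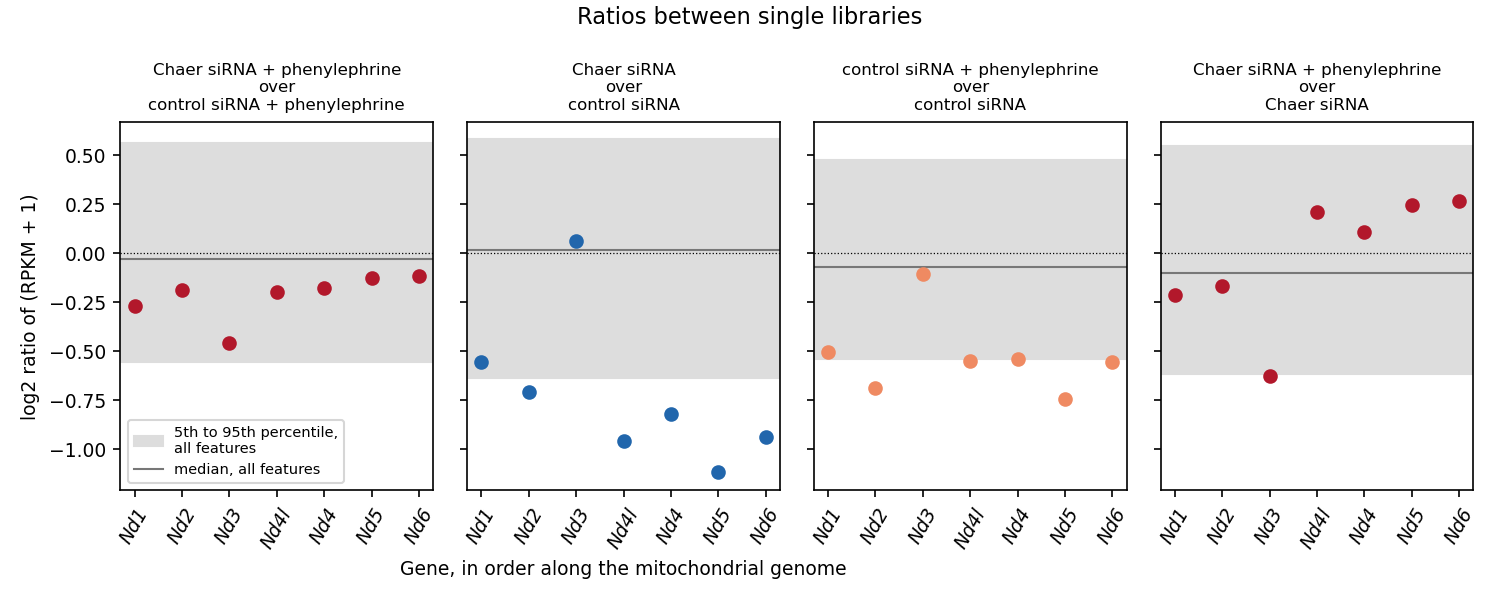
log2 ratio of (RPKM + 1) between single libraries for each complex I gene in 4 comparisons (points, with counting intervals smaller than the symbols), the median of all 12226 features (line) and their 5th to 95th percentile (grey). With the control siRNA library in the denominator several genes lie below the grey band, down to Nd5 at -1.11 for Chaer siRNA and at -0.74 for phenylephrine. Nd3 is the highest or the lowest of the 7 in all 4 comparisons, and at -0.63 it lies at the edge of the band in the last.

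For 46 other abundant features, whose mean reached 1000 RPKM, a limit chosen after the values were seen, the median log2 ratio against the control siRNA library was 0.06 for Chaer siRNA alone and 0.13 for phenylephrine. With Chaer siRNA alone 1 of the 46 (2.17%) was at least 1.5-fold lower, beside 6.21% of all features, and 19 had a negative ratio. For phenylephrine under control siRNA 3 of the 46 (6.52%) were at least 1.5-fold lower, beside 4.02% of all features, and 16 had a negative ratio. These other features are not named, and they may include further mitochondrial genes.

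The phenylephrine ratio thus differed between the siRNAs for every gene of the set. The difference of the log2 ratios, Chaer siRNA minus control siRNA, was 0.99 for Nd5 (counting interval 0.97 to 1.00), 0.82 for Nd6 (0.79 to 0.85), 0.76 for Nd4l (0.73 to 0.79), 0.64 for Nd4 (0.63 to 0.66), 0.52 for Nd2 (0.51 to 0.53) and 0.29 for Nd1 (0.28 to 0.30). Nd3 had the opposite sign, -0.52 (-0.54 to -0.50). Over all features the median difference was -0.06 and the SD 0.31, and the share of features at or below each gene was 99.6% for Nd5, 98.9% for Nd6, 98.3% for Nd4l, 96.8% for Nd4, 93.7% for Nd2, 84.1% for Nd1 and 2.66% for Nd3. By this measure 0 of the 7 reached 2-fold, beside 0.319% of all features higher and 0.221% lower with Chaer siRNA. Nd5 lay at the limit, and it passed under TMM (1.02), under median-ratio scaling (1.02), without the 20 most abundant features in the total (1.05) and without the 7 genes in the total (1.02). A model of all 4 libraries that holds this difference has nothing left to estimate an error from, so it was not tested, and it includes the high control siRNA library.

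**Figure D3:**
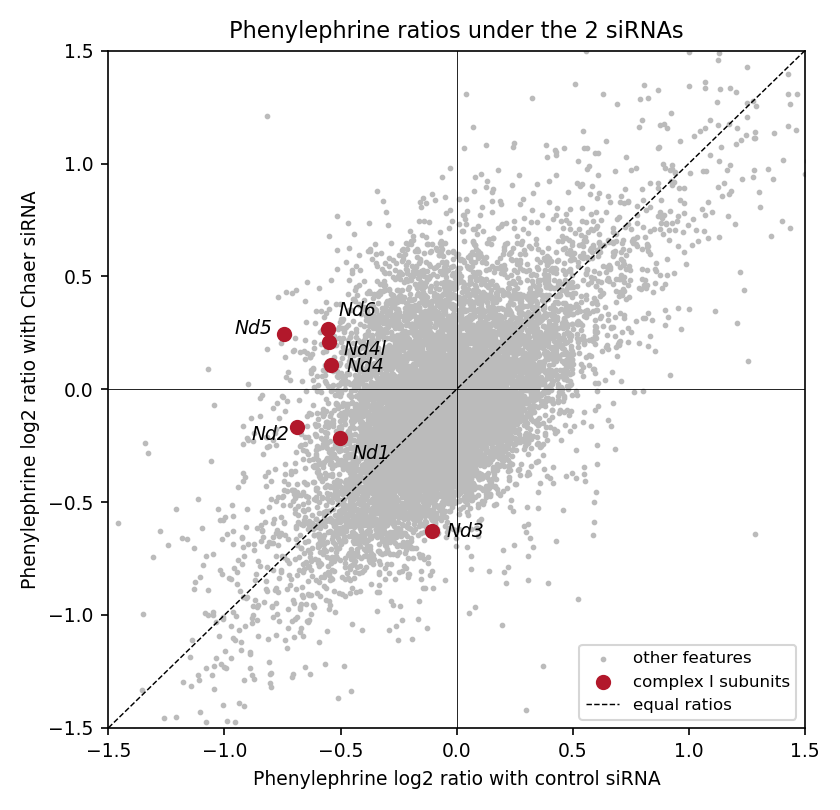
Phenylephrine log2 ratio of (RPKM + 1) with Chaer siRNA (vertical) against that with control siRNA (horizontal) for the 7 complex I genes (red) and the other features whose mean reached 1 RPKM (grey, of which 82 lie outside the axes). Nd4, Nd4l, Nd5 and Nd6 lie at the upper left, positive with Chaer siRNA and negative with control siRNA. Nd3, at -0.63 with Chaer siRNA and -0.11 with control siRNA, lies on the other side of the dashed line of equal ratios.

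The make-up of the set does not depend on how the libraries are scaled to each other. Nd3 held 5.02% of the reads of the 7 genes with Chaer siRNA and phenylephrine, 5.98% with control siRNA and phenylephrine, 7.38% with Chaer siRNA and 4.26% with control siRNA, with exact binomial intervals of at most 0.05 percentage points to either side. Its share with Chaer siRNA alone was the highest of the 4. Nd5 held 15.4% with Chaer siRNA and phenylephrine, 14.6% with control siRNA and phenylephrine, 12.4% with Chaer siRNA and 16.2% with control siRNA. It was thus lowest where Nd3 was highest.

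For every gene but Nd2, the share departed most from that with control siRNA alone in the library with Chaer siRNA alone. On the mitochondrial genome the genes lie in the order Nd1, Nd2, Nd3, Nd4l, Nd4, Nd5 and Nd6. The groups of genes that follow leave out Nd3, which lies between them, and were set with the values known. Nd4l, Nd4, Nd5 and Nd6 together held 36.5% of the set's reads with Chaer siRNA alone, against 42.3% with control siRNA. They held 43.1% with Chaer siRNA and phenylephrine, against 41.7% with control siRNA and phenylephrine. Nd1 and Nd2 together held 56.2% with Chaer siRNA, against 53.4% with control siRNA, and 51.9% with Chaer siRNA and phenylephrine, against 52.3% with control siRNA and phenylephrine. Nd3 and Nd4l, the shortest gene models, both had larger shares than with control siRNA in the libraries with phenylephrine, whereas with Chaer siRNA alone the share of Nd3 was larger and that of Nd4l smaller. The part of gene length in these values was not tested. Nd3 over Nd4l, neighbours on the genome, per length was 1.52 with Chaer siRNA and phenylephrine, 1.82 with control siRNA and phenylephrine, 2.71 with Chaer siRNA and 1.34 with control siRNA.

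**Figure D4:**
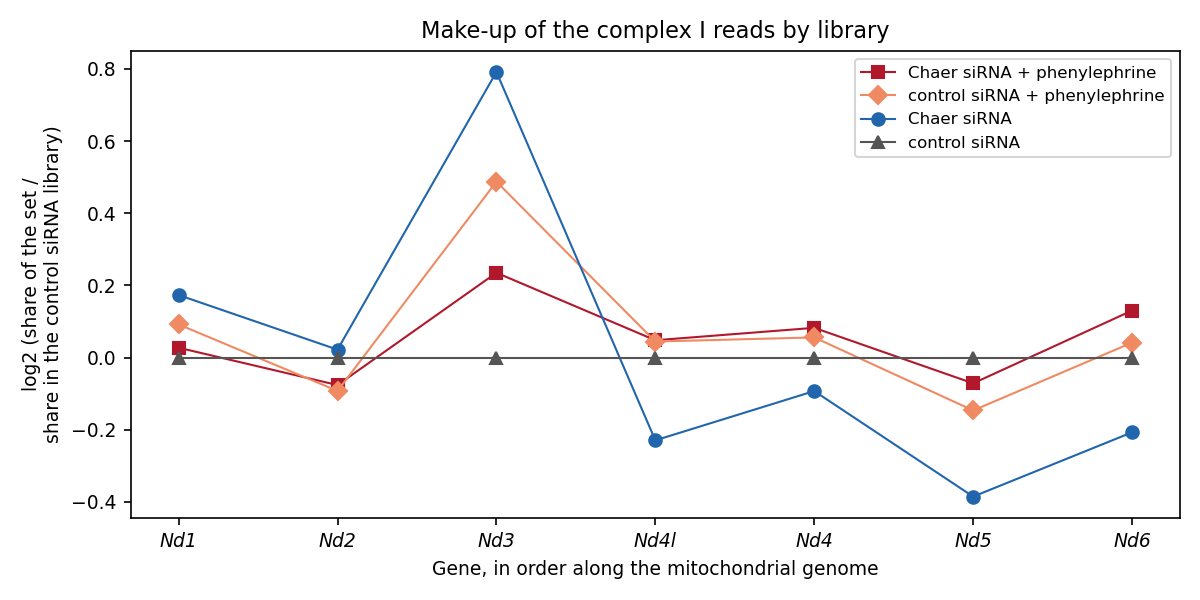
log2 of each gene's share of the complex I reads in a library over its share in the control siRNA library, which is 0 by construction, with genes in their order along the mitochondrial genome. Nd3 has a larger share in the other 3 libraries, up to 0.79 on this scale with Chaer siRNA, where Nd4l, Nd4, Nd5 and Nd6 have smaller shares.

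Ratios between the genes of a pair are also free of scaling. Nd4l over Nd4, which share a messenger, was 0.60 per length with Chaer siRNA and phenylephrine, 0.61 with control siRNA and phenylephrine, 0.56 with Chaer siRNA and 0.61 with control siRNA. Nd6 over Nd5, on opposite strands, was 0.72 with Chaer siRNA and phenylephrine, 0.71 with control siRNA and phenylephrine, 0.70 with Chaer siRNA and 0.62 with control siRNA. The library farthest from the others was that with Chaer siRNA alone for the first pair and that with control siRNA alone for the second. Since counting by strand is not given, it is not known whether the Nd6 values hold reads from the strand of Nd5.

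An additive edgeR quasi-likelihood fit of siRNA and phenylephrine over the 4 libraries compares 2 libraries with 2 for each factor. It has 1 residual degree of freedom, the departure from additivity, and no replicate, so its p-values do not cover differences between cultures. With Chaer siRNA, 4 of the 7 genes fell at an adjusted p under 0.05 (Benjamini-Hochberg, over all 12226 features), beside 10.2% of all features that fell and 9.44% that rose. Nd5 fell by 0.63 ± 0.18 (SE) on the log2 scale (edgeR adjusted p = 0.00454), Nd4l by 0.59 ± 0.15 (edgeR adjusted p = 0.00121), Nd6 by 0.53 ± 0.15 (edgeR adjusted p = 0.00429) and Nd4 by 0.51 ± 0.19 (edgeR adjusted p = 0.0360). Nd2, at -0.45 ± 0.20, Nd1, at -0.42 ± 0.18, and Nd3, at -0.20 ± 0.16, did not pass (edgeR adjusted p = 0.0894, 0.0883 and 0.429).

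For phenylephrine the same edgeR fit called 0 of the 7, with estimates from -0.33 ± 0.20 (SE) for Nd2 to -0.05 ± 0.15 for Nd6. Of the 7, 0 had an unadjusted p under 0.05, beside 3217 of the 12226 features. The fit called 8.76% of all features higher and 6.59% lower with phenylephrine. DESeq2 called 0 of the 7 as well, with 1 of them, Nd2, under an unadjusted 0.05, beside 1940 of all features. In edgeR, Nd2 and Nd3 were also under it with library size alone, beside 3376 of the 12226 features. With no filter on low values Nd2 was under it, beside 3704 of 18629 features. With the 7 genes left out of the total, Nd1, Nd2 and Nd3 were under it, beside 3596 of the 12226. The unadjusted p-values thus depended on the scaling and the filter. An additive model described Nd4, Nd4l, Nd5 and Nd6 poorly, and Nd1 departed least from it. The departure of Nd5 from additivity was larger than that of 99.8% of all features, and those of Nd6, Nd4l, Nd4, Nd2, Nd3 and Nd1 stood at 99.3%, 98.8%, 97.5%, 94.4%, 91.7% and 78.6%. Because edgeR took the spread from its trend across features in the TMM fit over the 12226 features, these departures did not widen the SEs of that fit. The siRNA calls average a large difference without phenylephrine and a small one with it. Among features whose mean reached 5 RPKM, the siRNA SE was 0.21 for Nd5 and 0.15 for Nd1, in place of 0.18 for both. The calls depended on the tool and the filter. Nd4l alone kept its call with DESeq2 (adjusted p = 0.0322, with a range of 0.000995 to 0.394 over the settings run) and with edgeR on features whose mean reached 5 RPKM (adjusted p = 0.0303). Of all features, 417 of the 11988 with an adjusted p fell with DESeq2, and 616 of 8895 with edgeR at 5 RPKM. DESeq2 gave the siRNA term of Nd5 an SE of 0.51 in place of 0.18 and an adjusted p = 0.612, where the settings run ranged from 0.000543 to that value. The estimates themselves hardly moved, with Nd5 at -0.61, Nd4 at -0.49 and Nd6 at -0.52 in DESeq2. With no filter on low values edgeR called 6 of the 7, with Nd2 (adjusted p = 0.0236) and Nd1 (adjusted p = 0.0422) added, beside 1298 of 18629 features that fell. With library size alone it called 3, beside 1127 of 12226 features that fell. An edgeR model of the siRNA alone called 0 of the 7, and 1 of the 12226 features. The adjusted p ranged up to 0.630 for Nd2 and 0.610 for Nd1 over the settings run.

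The pattern over the 4 libraries was not held by these genes alone. By the distance between profiles of log2 (RPKM + 1), each centred on its mean over the 4 libraries, the features nearest to the mean of the 7 genes were ENSRNOG00000050882 (distance 0.03) and ENSRNOG00000001597 (distance 0.04). ENSRNOG00000050882 had 2.87 RPKM with Chaer siRNA and phenylephrine, 3.41 RPKM with control siRNA and phenylephrine, 2.94 RPKM with Chaer siRNA and 5.35 RPKM with control siRNA, a far lower level than that of any of the 7. At such a level the added 1 shrinks the ratios between libraries, which it hardly does for the 7 genes, so the distance depends on it. Within the set, Nd4 was nearest to the mean (distance 0.10) and Nd3 farthest (0.58). Among the 12226 features whose mean reached 1 RPKM, 11 outside the set were nearer than Nd4. With 4 libraries such likeness is a description of these libraries.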

How the data were processed

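RNA sequencing of 4 libraries, 1 per group, was analysed. For every feature the authors deposited a read count and its RPKM, per the file headers. TopHat2 and the build rn5 are named in the submitters' processing notes. How reads were counted, with which annotation and whether by strand, is not given in the sources used here. The kit was a stranded TruSeq kit, per the labels' protocols. The read totals behind RPKM and the gene lengths were recovered from counts divided by RPKM, with lengths of the 4938 features with over 1000 reads in each library within 8.81e-08 bp of whole numbers. Between 3.88% and 4.29% of those totals were not in listed features.

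All 7 members passed the filter of a mean of at least 1 RPKM. Ratios used RPKM plus a pseudocount of 1, and with 1 library per group they carry counting intervals at 95% (exact binomial for ratios and shares, exact Poisson for levels, a normal approximation on log counts for the difference of effects) and no test. Such intervals cover counting error only. They may be too narrow even for that, since reads without molecular identifiers may be copies of the same molecule. The additive fit used edgeR 4.0.16 with TMM scaling (SE as the estimate over the root of its F value), and DESeq2 1.42.0 was an alternative. Both were run in R 4.3.3, the rest in Python 3.11.15, and the fit and the size rule were tested on simulated data. The simulated counts took their spread from the fit to these same libraries, or held counting error alone. They had no departure from additivity and no differences between cultures, so they say nothing about those. The named features were the 7 members and the 2 features nearest in pattern. Membership follows from gene identity alone, but this set of genes, the lists and the tests were chosen with earlier results of these data known. Lists of nuclear complex I subunits, assembly factors, mitochondrial transcription factors, other mitochondrial genes and cell type markers could not be applied, because the reference table (GRCr8) pairs 0 of the identifiers with a symbol. The member symbols came with the choice of members. No sequences of these genes were used here.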

Additional observations from a re-analysis of the deposited data

Results flagged for a closer look

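For 4 of the 7 genes the phenylephrine log2 ratio had opposite signs under the siRNAs, positive with Chaer siRNA and negative with control siRNA. The difference was 0.64 for Nd4, 0.76 for Nd4l, 0.99 for Nd5 and 0.82 for Nd6. The share of all features with opposite signs is not given here, so the count of 4 is not set against a background. Over all features the median phenylephrine log2 ratio was -0.10 (SD 0.38) with Chaer siRNA and -0.07 (SD 0.35) with control siRNA. For Nd3 the siRNA log2 ratio had opposite signs, -0.46 with phenylephrine and 0.06 without, a difference of -0.52. The opposite signs were lost when the 20 most abundant features were left out of the total, where the ratio without phenylephrine was -0.0196. With 1 library in each group, none of these differences was tested.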

How the results depend on the processing

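The median log2 ratio of the 7 genes kept its sign in each comparison under every setting run. For Chaer siRNA with phenylephrine it was -0.18 under TMM, -0.14 under median-ratio scaling, -0.20 without the 20 most abundant features in the total and -0.14 as TPM. For Chaer siRNA without phenylephrine it was -0.85, -0.81, -0.90 and -0.79 in that order, and -0.86 without the 7 genes in the total. For phenylephrine under control siRNA it was -0.47, -0.48, -0.62, -0.51 and -0.58. For phenylephrine under Chaer siRNA it was 0.22 under TMM, 0.21 under median-ratio scaling and 0.16 as TPM. The median difference of the phenylephrine effects was 0.68, 0.68, 0.71, 0.66 and 0.68 in the same order as for Chaer siRNA without phenylephrine.

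Without the 20 most abundant features in the total, 3 genes in place of 1 were at least 2-fold lower with Chaer siRNA alone, and the log2 ratio of Nd3 there became -0.0196. Of all features 2.17% were then past 2-fold in either direction, 35.8% of them higher, against 2.13% and 47.9% as deposited. Their median log2 ratio moved from 0.02 to -0.06. As deposited, the rule of 1.5-fold gave 5 genes lower for Chaer siRNA alone, beside 6.21% of all features. It gave 2 for phenylephrine under control siRNA, beside 4.02%, and 1 for phenylephrine under Chaer siRNA, beside 5.91%. The additive fit for Chaer siRNA called 4 genes lower, beside 1243 of 12226 features. With no filter on low values 6 genes fell, beside 1298 of 18629, and with library size alone 3, beside 1127 of 12226. When features had to reach a mean of 5 RPKM 1 gene fell, beside 616 of 8895. With DESeq2 1 fell, beside 417 of 11988. In an edgeR model of the siRNA alone 0 fell, where 1 feature of all was called and 1615 had an unadjusted p under 0.05. The cause was not tested. For phenylephrine 0 of the 7 were called under every setting run.

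Among all features past 2-fold, the higher ones were 64.9% for phenylephrine under control siRNA and 75.3% under TMM, 55.6% and 71.6% for phenylephrine under Chaer siRNA, and 47.9% for Chaer siRNA alone and 35.8% without the 20 most abundant features. The edgeR fit for phenylephrine called 1071 features higher and 806 lower, against 703 and 1292 with library size alone, 710 and 1515 with the 7 genes left out of the total, 679 and 466 among features reaching 5 RPKM, 561 and 342 with DESeq2 and 8 and 0 in a model of phenylephrine alone. For Chaer siRNA it called 1154 higher and 1243 lower, against 756 and 616 at 5 RPKM and 646 and 417 with DESeq2. The share of features past 2-fold, 1.73% to 2.13% by comparison, was 2.87% to 3.79% with a pseudocount of 0.1, 0.687% to 0.785% with 5 and 0.845% to 1.03% with no filter.

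No paired analysis was possible because there was 1 library in each group. No library was left out, because 3 libraries leave no error for the additive fit.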
